A study of Homo sapiens with 15 samples.

Results

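KELLY is an established human neuroblastoma cell line, and the arrays described here set it against 4 other neuroblastoma lines at the same time. A gene was counted for KELLY when its line mean lay above, or below, the line mean of every other line by at least 1 on the log2 scale. Of 12721 genes tested, 135 were higher in KELLY than in each of the other lines and 116 were lower. These are 1.06% and 0.912% of the tested genes. The members were picked by these differences, so their differences, p-values and lack of overlap are given as a description of the line. They are no separate evidence for it.

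The series measured total RNA on 15 oligonucleotide arrays, 3 for each of KELLY, SK-N-AS, SH-SY5Y, NGP and BE(2)-C. All 5 lines were grown in the same serum-containing medium with no treatment named in the labels, and RNA from counted cells was spiked with external (ERCC) control transcripts at lysis. From general knowledge of these lines, KELLY, NGP and BE(2)-C carry an amplified MYCN gene and SK-N-AS and SH-SY5Y do not. BE(2)-C and SH-SY5Y are themselves cloned sublines. Each line is 1 genotype, so nothing here separates what is typical of a group of tumours from what belongs to KELLY alone. Whether the 3 arrays of a line come from separate cultures is not said in the labels. A p-value here therefore reflects the spread among these arrays alone, which may be technical. Each array measured a whole culture, so fewer cells expressing a gene and less RNA per cell cannot be told apart.

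Neuroblastoma arises from the sympathoadrenal branch of the neural crest, the embryonic source of sympathetic neurons and adrenal chromaffin cells. Such cells make noradrenaline from tyrosine and pack it, together with granins and neuropeptides, into dense-core vesicles. Neuroblastoma lines are known to differ in how far they keep this adrenergic program and how far they resemble mesenchymal cells. The labelled cell type held in KELLY. All 11 neuroblast and sympathoadrenal markers on the array lay above the detection filter, an intensity of 80.6, in KELLY. Of 8 mesenchymal markers 3 did, as in SH-SY5Y and BE(2)-C, against 5 in NGP and 7 in SK-N-AS. The 8 summed to 823 to 893 in KELLY, 1700 to 1912 in SH-SY5Y, 3393 to 3994 in NGP and 4579 to 4799 in BE(2)-C. In SK-N-AS the sum was 26060 to 29132. These sums include VIM, itself picked by the rule. FN1 went the other way, at 422 in KELLY against 159 in SH-SY5Y, 196 in NGP and 52.3 in BE(2)-C, but 528 in SK-N-AS. None of the 7 epithelial, 5 leukocyte or 5 endothelial markers passed in KELLY, while 2 of 7 Schwann cell and melanocyte markers (PMEL and MITF) and 1 of 4 hepatocyte markers (APOA1) did.

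KELLY arrays correlated with each other at 0.995 to 0.996 and with arrays of other lines at 0.747 to 0.892. The mean correlation was closest with NGP (0.890), SH-SY5Y (0.886) and BE(2)-C (0.881) and lowest with SK-N-AS (0.749), a line that stands apart. The deposited arrays did not share a common level. On the deposited scale the median tested gene of KELLY lay 1.11 below that of SK-N-AS, 0.91 below BE(2)-C, 0.30 below NGP and 0.22 above SH-SY5Y on the log2 scale. With the ERCC controls set equal, this difference was -1.14 from SK-N-AS, -0.84 from BE(2)-C, -0.24 from NGP and 0.15 from SH-SY5Y. Each array was therefore centred on its median tested gene, and all log2 differences below refer to centred values unless stated otherwise, while intensities are given as deposited. Centred differences are relative to the array's median gene and do not give RNA per cell. On the deposited scale the counts were 60 higher and 221 lower, and with the ERCC controls set equal they were 64 and 227. Higher genes made up 53.8% of the calls after centring, 21.4% on the deposited scale, 22% after ERCC scaling and 35.1% when arrays were centred on all probe sets. The balance between both directions is thus set by the scaling. The ACTB control probe sets, a check of RNA quality, gave a 3' minus 5' log2 difference of 1.08 ± 0.13 in KELLY and from 0.97 ± 0.07 to 1.23 ± 0.08 in SH-SY5Y, NGP and BE(2)-C (SD, n = 3 arrays each). KELLY thus lay among these lines, while SK-N-AS was lower at 0.71 ± 0.06, and the part of RNA quality in the calls was not tested.

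**Figure D1:**
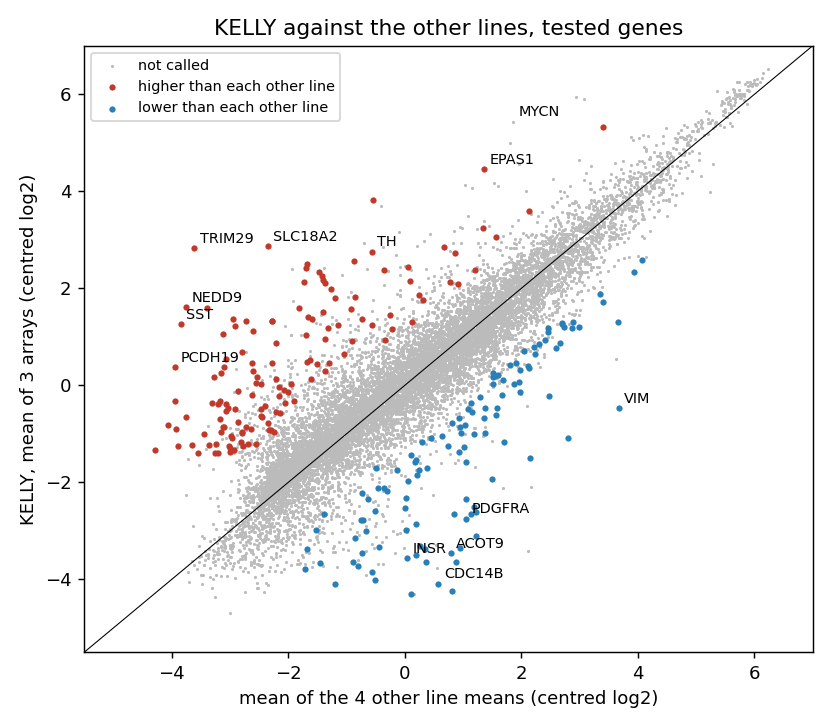
Each point is 1 of 12721 tested genes, with the mean of the 4 other line means on the x axis and the KELLY mean of 3 arrays on the y axis, both as centred log2 intensity. Red points are the 135 genes higher and blue points the 116 genes lower in KELLY than in each other line; TRIM29 lies farthest above the diagonal line of equal values and MYCN, not called, lies high in KELLY but only 0.22 above its nearest line, NGP.

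The genes highest in KELLY alone were of unlike kinds. TRIM29, a tripartite-motif protein best known from basal epithelium, stood 60.6-fold above the nearest line. Somatostatin (SST), a peptide hormone stored in secretory vesicles, stood 26.5-fold above it. NEDD9, a docking scaffold of focal adhesions, stood 20.7-fold above it. The vesicular monoamine transporter SLC18A2, which loads noradrenaline into vesicles, stood 15.8-fold above it, and the adhesion protein PCDH19, a delta-protocadherin, 13.9-fold. These folds are on the scale of log2(intensity + 1) and understate the change of dim genes.

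TRIM29, on chromosome 11, gave intensities of 1538, 1585 and 1499 on the KELLY arrays. The 12 other arrays ran from 17.6 to 33.9 with a median of 25.4. KELLY was thus bright in all 3 samples and every other sample was below the filter. The difference from SH-SY5Y, the nearest line, was 5.92 (SE 0.17), with a highest adjusted p of 5.26e-15 over the 4 contrasts in limma. The probe set used can match related transcripts, but the 5 further TRIM29 probe sets gave differences from 2.52 to 5.74. Common epithelial markers were dim in the same arrays. CDH1 stood at 27.7 ± 0.749, EPCAM at 27.4 ± 4.71, KRT5 at 42.4 ± 5.61 and KRT14 at 42.5 ± 6.03 in KELLY (SD, n = 3), all below the filter. Of 16 tested members of the epithelial and basal cell list, 2 were called higher, TRIM29 and the desmosomal cadherin DSG2, and 0 lower. Of all tested genes 1.06% were called higher and 0.912% lower. At an unadjusted p under 0.05, 2 (12.5%) of the list were higher in all 4 contrasts, where 9.89% of all tested genes were. The median difference of the list between KELLY and the mean of the other lines was 0.14, against 0.07 over all tested genes. DSG2 stood at 965, 1012 and 1117 in KELLY and at 911 to 1019 in SK-N-AS, so that the deposited values of these lines overlapped and its difference of 1.20 came with the centring.

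SST, on chromosome 3, read 506, 523 and 522 in KELLY. Elsewhere it ran from 9.71 to 43.0 with a median of 21.6. No array of another line came near the KELLY values, and the difference from BE(2)-C was 4.73 (SE 0.22, highest adjusted p 3.79e-12 in limma). CARTPT, which encodes the CART peptide precursor of neurons and endocrine cells, read 494, 407 and 460 in KELLY. It was 94.3 ± 7.33 in BE(2)-C and 20.3 ± 1.71 to 30.1 ± 8.39 in the remaining lines (SD, n = 3). BE(2)-C was thus the only other line above the filter for CARTPT, and KELLY differed from it by 3.17 (SE 0.23). NMU, the neuromedin U precursor, went the other way, with 19.1, 17.0 and 24.5 in KELLY and 156 to 1278 in the other lines. Its difference from SK-N-AS, the nearest line, was -2.61, on a probe set that can match related transcripts.

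Among 21 tested neuropeptide and granule genes, 2 were higher (SST and CARTPT) and 1 was lower (NMU) in KELLY than everywhere else. In all 4 contrasts at an unadjusted p under 0.05, 5 (23.8%) were higher and 2 (9.52%) lower. The shares of all tested genes were 9.89% and 9%. The median over the 21 was 0.94, against 0.07 for all tested genes. Such list medians compare KELLY with a mean that includes SK-N-AS, the line least correlated with it. They do not show that KELLY differs from each of the other lines. Members that were not called ran both ways. Chromogranin A (CHGA), a core protein of dense-core granules, was 13305 ± 846 in KELLY and 16971 ± 797 in BE(2)-C on the deposited scale (SD, n = 3), and after centring KELLY was the higher by 0.56. The centred CHGA difference was 9.06 from SK-N-AS, 0.97 from SH-SY5Y and 1.45 from NGP. VIP lay 4.42 below the mean of the other lines and CRH 4.11 above it without meeting the rule.

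The promoters of SST and CARTPT, together with those of SLC18A2 and SGIP1, hold the palindromic cAMP response element TGACGTCA, a sequence bound by CREB-family factors. They are shown because these are the 4 higher genes with this motif in the window from 250 bases before to 50 after the start. Stretches are from RefSeq (GRCh38.p14), 5′ to 3′ on the gene's strand, with the motif in capitals. They lie at chr3:187670395-187670501 (minus strand) for SST, chr10:117241006-117241113 (plus) for SLC18A2, chr5:71719072-71719199 (plus) for CARTPT and chr1:66533485-66533592 (plus) for SGIP1.
SST: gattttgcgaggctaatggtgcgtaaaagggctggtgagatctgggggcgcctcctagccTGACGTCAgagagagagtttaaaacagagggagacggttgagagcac
SLC18A2: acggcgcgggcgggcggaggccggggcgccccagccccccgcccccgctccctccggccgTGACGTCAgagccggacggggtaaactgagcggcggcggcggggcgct
CARTPT: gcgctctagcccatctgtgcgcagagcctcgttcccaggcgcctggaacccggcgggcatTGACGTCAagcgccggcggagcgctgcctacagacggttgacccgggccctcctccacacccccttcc
SGIP1: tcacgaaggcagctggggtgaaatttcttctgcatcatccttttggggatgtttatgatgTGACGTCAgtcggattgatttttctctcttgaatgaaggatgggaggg
The motif starts 47 bases before the start of SST, 48 before those of SLC18A2 and SGIP1 and 143 before that of CARTPT. Promoter sequences were matched for 110 of the 135 higher genes, and 4 of them (3.64%) held it. The share was 5.1% among 98 lower genes and 3.74% among 10398 tested genes with a promoter, so the share among higher genes was close to that of tested genes at large. The E-box CACGTG, bound by MYC-family proteins, was in 10 higher promoters (9.09%), 12 lower promoters (12.2%) and 12.6% of all. Both motifs read the same on either strand, and a match is a description of the sequence.

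SLC18A2 gave 1568, 1557 and 1635 in KELLY. BE(2)-C was next with 200, 182 and 182, and the other lines lay between 34.0 and 51.2. The groups did not overlap, and the difference from BE(2)-C was 3.99 (SE 0.09). The related transporter SLC18A1, usual in chromaffin cells, gave 835, 850 and 871 in KELLY and 856, 692 and 717 in BE(2)-C, so deposited values overlapped and the difference of 1.09 arose after centring. Tyrosine hydroxylase (TH), the rate-limiting enzyme of catecholamine synthesis, gave 1432, 1463 and 1495 in KELLY. It gave 842, 730 and 754 in BE(2)-C and 77.8 to 249 in the remaining lines, for a difference of 1.83 (SE 0.12) from BE(2)-C. In all, 3 of 16 tested catecholamine genes were called higher and 0 lower, where 1.06% and 0.912% of all tested genes were. With an unadjusted p under 0.05 in all 4 contrasts, 4 (25%) were higher and 0 lower. The shares of all tested genes were 9.89% and 9%. The list had a median of 0.76 against the mean of the other lines, SK-N-AS included. DBH, which makes noradrenaline from dopamine, was not called, at 2277 ± 53.2 in KELLY and 96.0 ± 4.78 in SK-N-AS (SD, n = 3), and SH-SY5Y (2161 to 2653) and BE(2)-C (2164 to 2250) reached similar values.

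Transcription factors of the adrenergic state were not among the members. Of 22 tested, 0 were called by limma in either direction, and the median was 0.21. At an unadjusted p under 0.05 in all 4 contrasts 0 were higher and 3 (13.6%) lower, where 9.89% of all tested genes were higher and 9% lower by that measure. HAND2 read 7705, 8285 and 8494 in KELLY and 6267 to 12348 over the other arrays. GATA3 read 2268, 2478 and 2471, between SK-N-AS and SH-SY5Y. MYCN read 9253, 9551 and 9286 in KELLY, against 9925 ± 615 in NGP and 13689 ± 526 in BE(2)-C, and 78.8 ± 6.30 in SK-N-AS (SD, n = 3). Its difference from NGP after centring was 0.22 (SE 0.12) with an adjusted p of 0.111 in limma. LIN28B, an oncofetal RNA-binding protein, was likewise shared, with 1552, 1578 and 1611 in KELLY and a difference of 0.15 from NGP. The MYC family and oncofetal list had 0 of 20 genes called, with 3 (15%) higher and 2 (10%) lower in all 4 contrasts at an unadjusted p under 0.05, near the shares of all tested genes.

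**Figure D2:**
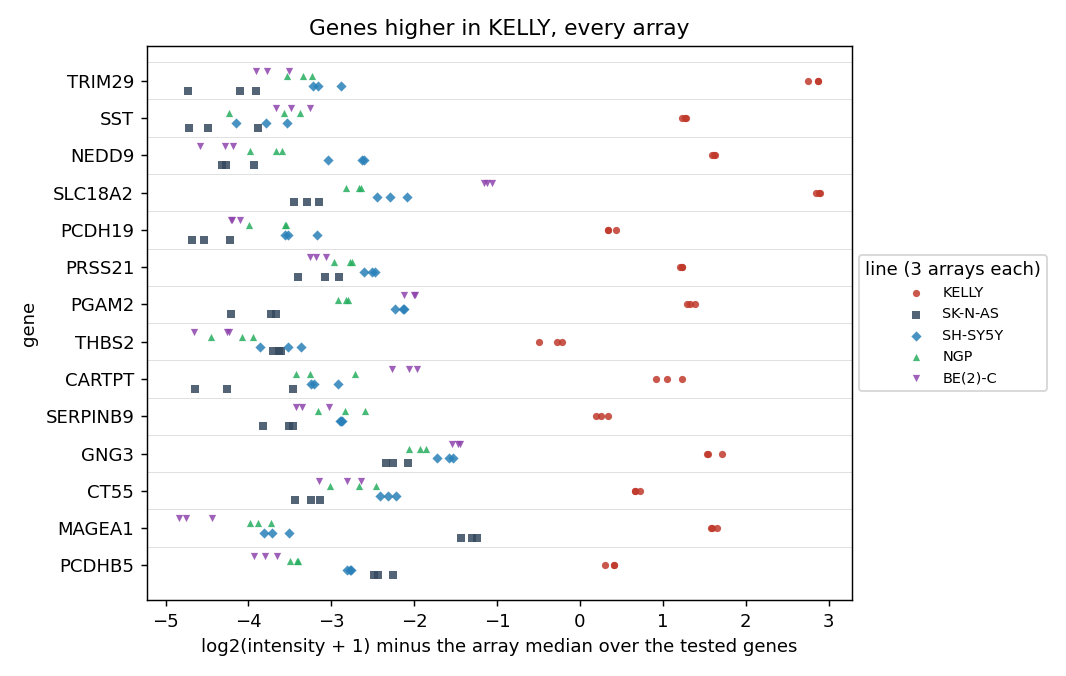
Points are single arrays, 3 per line, for the 14 genes with the greatest distance above the nearest line, and the x axis is log2(intensity + 1) minus the array's median tested gene. KELLY (red circles) lies to the right of every other array for each gene, with BE(2)-C second for SLC18A2, CARTPT, PGAM2 and GNG3 and SK-N-AS second for MAGEA1 and PCDHB5.

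Adhesion and scaffold genes were the next group. NEDD9, on chromosome 6, gave 635, 667 and 682 in KELLY. The other arrays ran from 15.2 to 31.2. Every array outside KELLY was below the filter, and the difference from SH-SY5Y was 4.37 (SE 0.15). Of 3 further NEDD9 probe sets, 2 that were above the filter differed by 3.03 and 2.87. DOCK3, an exchange factor for RAC that works with CRK-CAS scaffolds, gave 98.7, 74.7 and 98.3 in KELLY and 13.2 to 26.5 elsewhere. Of 31 tested genes of CAS scaffolds and focal adhesion partners, these 2 were higher and 0 lower, with a median of 0.16. By the unadjusted p in all 4 contrasts 2 (6.45%) were higher and 4 (12.9%) lower, against 9.89% and 9% of all tested genes. The family members BCAR1 and EFS differed from the mean of the other lines by -0.17 and 0.72 and were not called.

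PCDH19, on the X chromosome, gave 267, 291 and 280 in KELLY and 14.3 to 23.8 on all other arrays. The distance of 3.79 (SE 0.15) again separated KELLY from lines in which the gene was below the filter. PCDHB5, of the clustered beta-protocadherins, gave 280, 287 and 273 in KELLY. SK-N-AS was second at 88.3 ± 5.19 (SD, n = 3), and the difference from it was 2.77. These were the 2 called of 20 tested protocadherins, of which 0 were lower. With the unadjusted p in all 4 contrasts 2 (10%) were higher and 0 lower, against 9.89% and 9% of all tested genes. The list's median was 0.31, and the neighbouring cluster genes PCDHB3 and PCDHB6 lay 0.86 and 0.90 under the mean of the other lines. Among 14 classical cadherins and catenins, CDH10 alone was called. Its KELLY values of 125, 96.3 and 92.4 overlapped the 94.3 to 108 of SK-N-AS on the deposited scale. Of the 14, 4 (28.6%) were higher and 0 lower in all 4 contrasts by the unadjusted p, against 9.89% and 9% of all tested genes.

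Matrix genes split in direction. Thrombospondin-2 (THBS2), a matricellular glycoprotein, gave 181, 177 and 157 in KELLY and 11.2 to 38.7 elsewhere, a difference of 3.25 from SH-SY5Y. Laminin alpha-1 (LAMA1), a chain of basement membrane laminin, gave 524, 532 and 578 against 26.9 to 128. The metalloproteinase inhibitor TIMP3 was lower, with 38.5, 31.2 and 35.0 in KELLY and 70.9 to 628 elsewhere. Of 31 tested matrix genes these were the only ones called, 2 higher and 1 lower, and the median was -0.38. By the unadjusted p in all 4 contrasts 4 (12.9%) were higher and 7 (22.6%) lower, against 9.89% and 9% of all tested genes.

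Genes normally kept to the germ line formed another set. MAGEA1, a cancer-testis antigen, gave 636, 677 and 661 in KELLY. SK-N-AS was second with 186 ± 4.39 and the remaining lines had means of 13.6 to 17.3. MAGEA10 gave 548, 525 and 568, again with SK-N-AS second at 267 to 301. PAGE1 gave 109, 117 and 119, with 33.8 to 49.1 in SK-N-AS. In MAGEA1 and MAGEA10 KELLY stood first and SK-N-AS second. For PAGE1 the SK-N-AS values were below the filter and overlapped those of SH-SY5Y after centring. These 3 genes were the ones called of 14 tested in the list, with 0 lower. With the unadjusted p in all 4 contrasts 3 (21.4%) were higher and 0 lower, against 9.89% and 9% of all tested genes. The list's median was -0.08, and MAGEB2, MAGEC1 and MAGEC2 lay 1.16 to 1.72 below the mean of the other lines. CT55, another cancer-testis gene, gave 335, 355 and 350 in KELLY and 32.1 to 62.6 elsewhere. The testis serine protease PRSS21 gave 487, 506 and 519 against 29.9 to 64.5, a difference of 3.75 (SE 0.11). The MAGEA1 and CT55 probe sets can match related transcripts.

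The remaining leading genes were PGAM2, SERPINB9 and GNG3. PGAM2, the muscle form of the glycolytic phosphoglycerate mutase, gave 549, 528 and 554 in KELLY and 24.0 to 104 elsewhere. SERPINB9, an inhibitor of granzyme B, gave 265, 258 and 253 against 22.9 to 47.6. GNG3, a neuronal G-protein gamma subunit, gave 612, 708 and 639 against 52.2 to 151. All 3 were free of overlap, with differences from the nearest line of 3.37, 3.12 and 3.08.

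Receptors for transmitters lay mostly above the mean of the other lines without meeting the rule. Of 21 tested, 19 had a positive difference from that mean, as had 7052 of all 12721 tested genes, and the median was 0.85. Only 2 were called higher and 0 lower. At an unadjusted p under 0.05 in all 4 contrasts 6 (28.6%) were higher and 0 lower, against 9.89% and 9% of all tested genes. The called genes were the serotonin-gated channel HTR3A, with 208, 230 and 230 in KELLY and 108 to 118 in NGP, and the ATP-gated channel P2RX3, with 86.0, 89.6 and 94.3 against 24.6 to 52.9 elsewhere. P2RX3 lay just above the filter. The nociceptin receptor OPRL1 was the 1 called of 12 tested neuropeptide receptors, at 287, 305 and 315 in KELLY. It was also the 1 (8.33%) higher in all 4 contrasts by the unadjusted p, near the 9.89% of all tested genes, and 0 were lower. BMP7, a bone morphogenetic protein, gave 1037, 1224 and 1207 in KELLY and 475 to 498 in NGP. In the TGF-beta and BMP list it was the 1 higher gene of 27, while the type I receptors ACVR1 and BMPR1B were lower by 1.44 and 1.21 than the nearest line. By the unadjusted p in all 4 contrasts 3 (11.1%) of that list were higher and 7 (25.9%) lower, against 9.89% and 9% of all tested genes.

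Some further members were chosen after their values were seen. EPAS1, the hypoxia-inducible factor HIF-2 alpha, stood at 4761 ± 412 in KELLY, with 1787 in BE(2)-C and 278 to 1073 in the other lines, a difference of 2.32. The pyruvate dehydrogenase kinase PDK1 differed from its nearest line, NGP, by 1.03, the glycolytic regulator PFKFB4 from SH-SY5Y by 1.53 and neuron-specific enolase ENO2 from SH-SY5Y by 1.18. The related regulator PFKFB3 was lower in KELLY, at 71.1 ± 3.84 against 272 to 1569 on its brightest probe set. In its 3 further probe sets KELLY was not the lowest line, lying above at least 1 other line by up to 0.34, 0.23 and 0.03. The 3 further PFKFB4 probe sets, all below the filter, differed from the nearest line by 0.32, -0.02 and 0.53, so both calls rest on 1 probe set each. RGMA, a guidance molecule bound by neogenin, stood at 1275 ± 101 against 75.4 to 337. CNTNAP2, a neurexin-family adhesion protein, stood at 3124 ± 616 against 50.3 to 773 (SD, n = 3 each).

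The genes lowest in KELLY included the intermediate filament vimentin and the insulin receptor. Vimentin (VIM) lay 9.57-fold below the nearest line and the insulin receptor (INSR) 9.61-fold. The mitochondrial thioesterase ACOT9 lay 14.1-fold below it, the phosphatase CDC14B 12.1-fold and the MYC-interacting transcriptional regulator CDCA7L 12.1-fold. In 56 of the 116 lower genes KELLY itself was below the filter, so that these folds depend on how background is measured there.

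VIM, the filament protein of mesenchymal cells that neuroblastoma lines also usually make, gave 139, 154 and 175 in KELLY. The line means elsewhere were 17794 for SK-N-AS, 4052 for BE(2)-C, 2726 for NGP and 1289 for SH-SY5Y. No array overlapped, and the difference from SH-SY5Y was -3.26 (SE 0.08, highest adjusted p 1.23e-15 in limma). A further VIM probe set gave -3.09. Among 20 mesenchymal transcription factors ZEB2, a repressor of epithelial genes, was called lower at 85.3, 92.7 and 111 against 302 to 529 elsewhere. A further ZEB2 probe set above the filter differed from the nearest line by only -0.15, so the call rests on 1 probe set. The limma test called 0 factors of this list higher, and the median was -0.40 against the mean of the other lines, SK-N-AS included. At an unadjusted p under 0.05 in all 4 contrasts 2 (10%) were higher and 3 (15%) lower, against 9.89% and 9% of all tested genes.

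INSR, on chromosome 19, gave 20.8, 14.8 and 16.9 in KELLY. The other arrays ran from 141 to 484. KELLY was thus below the filter where every other line was above it, with a difference of -3.26 (SE 0.14) from SH-SY5Y. The 4 further INSR probe sets differed by -0.17 to -3.46, all in the same direction. The related IGF1R differed from the mean of the other lines by -0.0028. PDGFRA, the alpha receptor for platelet-derived growth factor, gave 32.2, 27.9 and 34.0 in KELLY. BE(2)-C had 174 to 177 and SK-N-AS 1995 to 2096, and the difference from BE(2)-C was -1.54. These 2 were the lower ones called among 27 receptor tyrosine kinases, and 0 were called higher by limma. With an unadjusted p under 0.05 in all 4 contrasts, 5 (18.5%) were higher and 4 (14.8%) lower, against 9.89% and 9% of all tested genes. ALK gave 201, 216 and 224 in KELLY and 449 to 515 in SH-SY5Y.

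**Figure D3:**
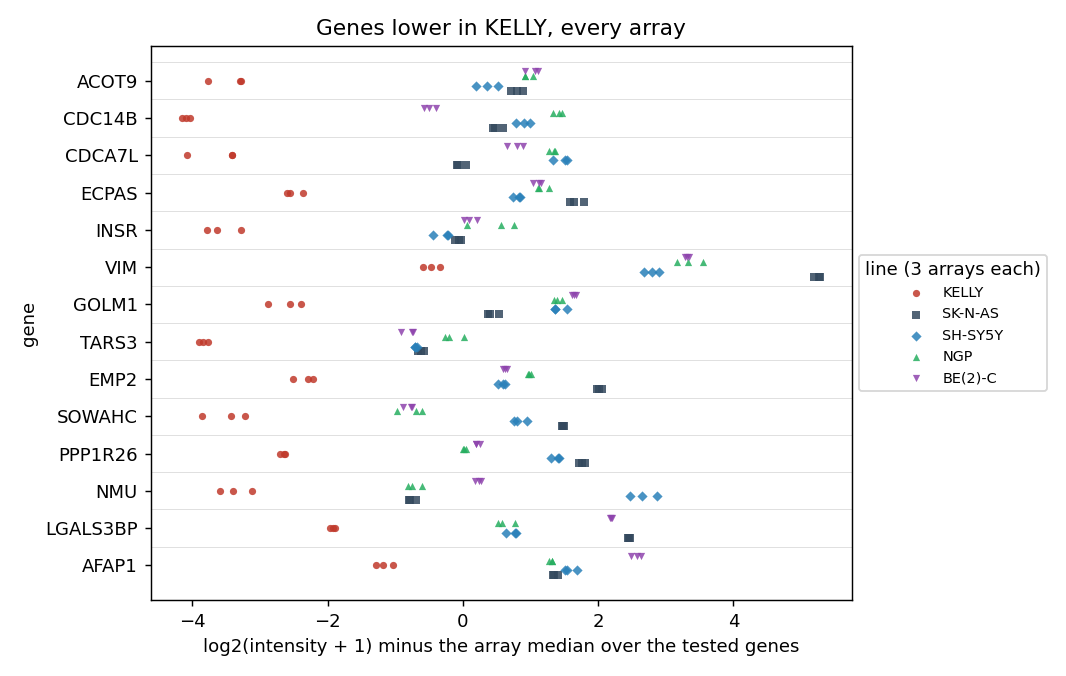
Points are single arrays, 3 per line, for the 14 genes with the greatest distance below the nearest line, on the same axis of log2(intensity + 1) minus the array's median tested gene. KELLY lies to the left of all 12 other arrays in each gene, and SK-N-AS is the brightest line for VIM, ECPAS, EMP2, SOWAHC, PPP1R26 and LGALS3BP.

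ACOT9 gave 20.4, 14.8 and 21.8 in KELLY and 200 to 878 elsewhere. CDC14B, a dual-specificity phosphatase, gave 10.9, 12.2 and 11.99 against 282 to 761. CDCA7L gave 18.8, 19.2 and 12.2 against 429 to 752. All 3 were below the filter in KELLY and above it on every other array, and their differences from the nearest line were -3.81, -3.60 and -3.60. The proteasome adaptor ECPAS gave 33.9, 41.0 and 36.7 against 293 to 1568. The Golgi membrane protein GOLM1 gave 39.2, 28.3 and 36.7 against 448 to 1287, although in a second and dimmer GOLM1 probe set KELLY was not the lowest line and lay up to 1.001 above another. The threonyl-tRNA synthetase TARS3 and the tetraspan protein EMP2 lay 3.04 and 2.92 below the nearest line. SOWAHC and PPP1R26 lay 2.70 and 2.68 below it. The secreted glycoprotein LGALS3BP gave 52.8, 57.5 and 57.5 against 272 to 2711, and AFAP1, an actin-filament adaptor, gave 92.3, 105 and 89.9 against 509 to 2597.

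Signalling genes were also among the lower ones. LGR5, the R-spondin receptor, gave 19, 29.1 and 25.9 in KELLY and 77.9 to 7177 elsewhere. FZD1, a WNT receptor, gave 29.1, 32.3 and 30.7 against 100 to 350. They were the 2 called of 32 tested WNT genes, with 0 higher by limma. By the unadjusted p in all 4 contrasts 2 (6.25%) were higher and 3 (9.38%) lower, near the shares of all tested genes. The retinaldehyde dehydrogenase ALDH1A3, which makes retinoic acid, gave 27.9, 21.9 and 29.7 against 177 to 1104 and was the 1 called of 10 retinoic acid genes. Its 3 further probe sets differed from the nearest line by only -0.28, -0.12 and -0.06, so the call rests on 1 probe set. The repulsive guidance cue SEMA3C was the 1 called of 36 axon guidance genes and the sodium channel SCN9A the 1 called of 24 channels, at differences of -1.44 and -1.03 from NGP. By the unadjusted p in all 4 contrasts 5 (13.9%) axon guidance genes were higher and 1 (2.78%) lower. Among channels it was 1 (4.17%) in each direction, and among retinoic acid genes 1 (10%) in each. The shares of all tested genes were 9.89% higher and 9% lower.

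Antigen presentation and interferon genes lay low without being lowest in KELLY. Of 29 tested, 25 had a negative difference from the mean of the other lines, as had 5669 of all 12721 tested genes, and the median was -0.62. None was called by limma, and 0 were lower in all 4 contrasts even at an unadjusted p under 0.05, which 9% of all tested genes were. TAP2, a subunit of the peptide transporter, read 45.2, 38.0 and 38.5 in KELLY, and 38.9 to 49.5 in NGP. OAS3 read 18.0, 27.4 and 27.1, against 13.3 to 17.9 in NGP. In both genes NGP overlapped KELLY or lay below it.

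**Figure D4:**
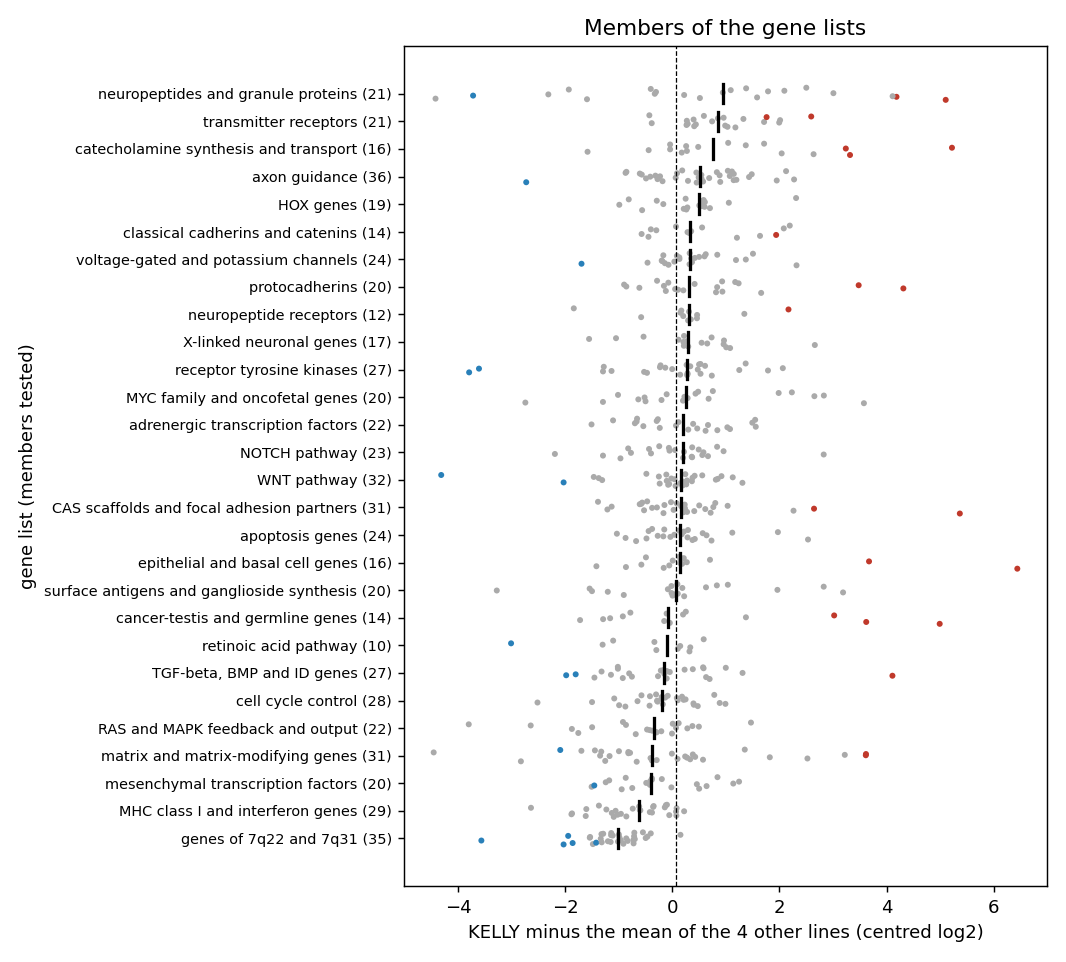
Each point is a tested member of a gene list, placed on the x axis by KELLY minus the mean of the 4 other lines (centred log2), with red for called higher and blue for called lower. Black bars are list medians, from 0.94 for neuropeptides and granule proteins down to -1.02 for genes of 7q22 and 7q31, and the dashed line is the median of all tested genes, 0.07. The mean of the other lines includes SK-N-AS, the line least correlated with KELLY.

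Without centring, the medians of all lists shift together with the median of all tested genes, which was -0.46 on the deposited scale. The neuropeptide, catecholamine and transmitter receptor medians were then 0.42, 0.24 and 0.32, while those of axon guidance, HOX genes, protocadherins, adhesion scaffolds and epithelial genes were negative. Since every list moves by the same amount, these signs are set by the centred medians and add no separate evidence.

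The lower genes were unevenly placed along the chromosomes of the RefSeq annotation (GRCh38.p14). Chromosome 9 held 22 of the 116 (19%) but 3.99% of the tested genes, and chromosome 7 held 13 (11.2%) with 4.73% of the tested genes. Chromosomes 2, 4 and 14 held 14 (12.1%), 11 (9.48%) and 9 (7.76%) of the lower genes, with 6.65%, 3.61% and 3.31% of the tested genes. Chromosome 3 held 14 of the 135 higher genes (10.4%) with 5.54% of the tested genes, and chromosome 17 held 1 (0.741%) with 5.99%. Of the 14 leading lower genes, CDC14B, ECPAS, GOLM1 and PPP1R26 are on chromosome 9.

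Running medians over 15 neighbouring tested genes went to -1 or lower on chromosomes 7, 9 and 14 and reached 1 on none, a threshold chosen after the data were seen. On chromosome 7 the windows from GNB2 to PUS7 covered 42 genes, of which 37 lay below the mean of the other lines, with a median of -1.10 and 5 called lower. The median difference over these genes was -1.33 from SH-SY5Y, -1.02 from BE(2)-C, -0.91 from SK-N-AS and -0.70 from NGP. KELLY was thus the lower line in each contrast there. On chromosome 9 the windows from FAM120AOS to PRXL2C covered 17 genes with a median of -1.08, and 7 of them were called lower. The longest run there, SPATA31D1 to GADD45G, covered 25 genes with 3 called lower and a median of -0.70, which was -0.20 against SK-N-AS and -1.36 against BE(2)-C. FAM120AOS and FAM120A overlap each other on the genome and both were called, and whether their probe sets share signal was not tested. Further FAM120A probe sets above the filter differed from the nearest line by -1.47 and -0.89. Below the filter the values were 1.06 and 0.90 for FAM120A and 0.65 for FAM120AOS. Near the end of chromosome 14 the windows from INF2 to MTA1 covered 16 genes, 4 of them called lower. Their median difference was -0.96 from SH-SY5Y, -0.70 from NGP, -0.67 from SK-N-AS and -0.41 from BE(2)-C. Of all 12721 tested genes 0.912% were called lower and 5669 lay below the mean of the other lines. All these stretches were picked by their low running medians, so the counts within them are a description only.

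The list of genes at 7q22 and 7q31 gave the same stretch gene by gene. Of 35 tested, 34 lay below the mean of the other lines, 5 were called lower and 0 higher, and the median was -1.02. At an unadjusted p under 0.05 in all 4 contrasts 29 of the 35 (82.9%) were lower in KELLY, against 9% of all tested genes. The list was drawn up with earlier results of these data known, so it is no independent evidence of its direction. CUX1, a homeodomain transcription factor, gave 127, 130 and 147 in KELLY and 444 to 1190 elsewhere. BCAP29, an endoplasmic reticulum protein, gave 106, 114 and 107 against 335 to 1237. Reelin (RELN), the extracellular guide of migrating neurons, gave 21.2, 18.0 and 23.8 against 46.3 to 4541. LRWD1, an origin recognition partner, gave 114, 117 and 136 against 360 to 927, and the RNA polymerase II subunit POLR2J gave 370, 358 and 401 against 878 to 2410. The POLR2J and LRWD1 probe sets can match related transcripts. RELN, at 3.57 below the mean of the other lines, lay farthest down in the list.

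**Figure D5:**
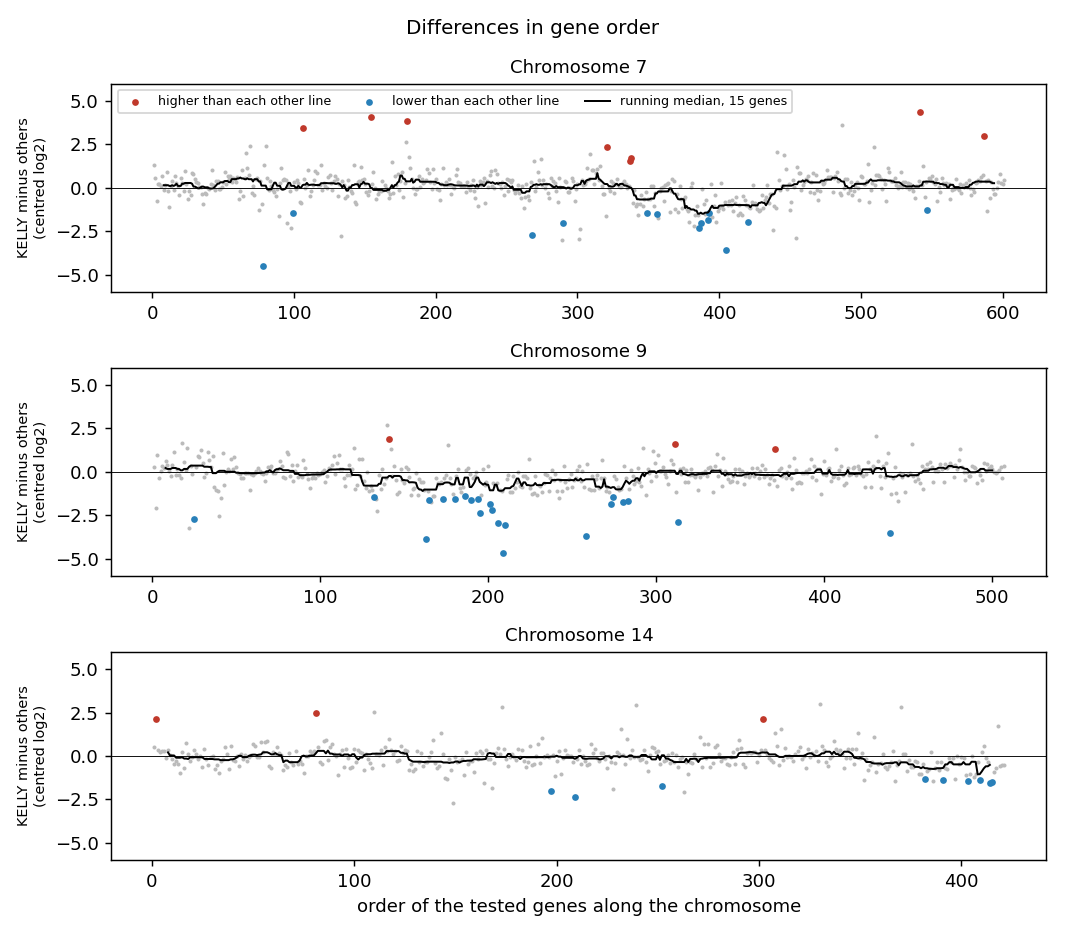
Points are tested genes in chromosomal order (x axis, rank along the chromosome) with KELLY minus the mean of the 4 other lines in centred log2 units on the y axis, and the black line is the running median over 15 genes. The line drops to -1.48 in a stretch of chromosome 7 and to -1.09 and -1.05 on chromosomes 9 and 14. Called lower genes are blue. On chromosome 9 the -1.09 falls in the run SPATA31D1 to GADD45G, with 3 called lower, while FAM120AOS to PRXL2C holds 7.

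Across all members the distance to the nearest line had a median of 1.43 for higher and 1.34 for lower genes. It was at least 2 in 30 higher and 20 lower genes and at least 3 in 12 and 8. The nearest line was SH-SY5Y for 51 higher genes, NGP for 40, BE(2)-C for 26 and SK-N-AS for 18. For lower genes it was NGP for 47, SH-SY5Y for 29, BE(2)-C for 21 and SK-N-AS for 19. In 48 of the 135 higher genes all 4 other lines were below the filter. KELLY arrays did not overlap the others in any member, which 2499 of the 12721 tested genes also showed. All members had an adjusted p under 0.05 in limma, at most 0.000223, so the size rule and not the test set the membership.

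The edge of the rule cut through a continuum. RAD51AP1, a homologous recombination factor, and ANGPTL4, a lipoprotein lipase inhibitor, were members with differences of 1.001 and 1.004, while SYCP2L and GRIP1 were outside with 0.998 each. On the lower side FZD1 and POLR2J were members at -1.004 each, and TTC32 and SYNPO2 were outside at -0.999 and -0.998. A further 339 genes were higher and 283 lower than exactly 3 of the lines. NGP was the missing line in 140 and 114 of these. Set against 3 lines only, without SK-N-AS, KELLY had 198 higher and 178 lower genes, and without NGP it had 275 and 230.

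Further probe sets of the same genes give a second reading. For several named genes those above the filter fell short of the size rule. They differed from the nearest line by -0.06 for PDGFRA, -0.01 for LGR5, -0.08 for BMPR1B and 0.10 for OPRL1. For ZEB2 the value was -0.15, for SCN9A -0.32, for LRWD1 -0.58, for BMP7 0.75 and for RGMA 0.90. For TIMP3 they gave -0.23 and -0.26, for CUX1 -0.93 and -0.01, and for RELN -0.19 to -0.90. For the higher genes 123 further probe sets lay above the filter, of which 120 had the same sign and 84 also differed by at least 1 from the nearest line. For the lower genes 162 of 185 had the same sign and 55 differed by at least 1. The filter needs only 1 bright line, so for higher genes it favours probe sets that are high in KELLY. Without it 184 of 201 further probe sets of higher genes had the same sign and 96 differed by at least 1. For lower genes 171 of 232 had the same sign and 55 differed by at least 1. The 14 leading higher genes had 16 further probe sets. All 11 above the filter differed by at least 1, while those below it ran from -0.28 (SERPINB9) to 2.18 (CT55). For the 14 leading lower genes 22 of 23 above the filter had the same sign and 16 differed by at least 1.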

How the data were processed

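The authors deposited 1 linear microarray intensity per array and probe set. Per the submitters' processing notes MAS5 was used. Its version, scaling and background correction are not stated in the sources used here. Of 49494 probe sets, 45277 named 1 gene, 1333 several and 2682 none, and 202 were controls. The probe set with the highest mean stood for each of 18244 genes. Tested were the 12721 genes with a line mean of at least 6.35 (log2), the overall median. Values were taken as log2(intensity + 1), and each array was centred on its median tested gene. One limma model (R 4.3.3, limma 3.58.1) of all 15 arrays estimated each line's mean with an intensity trend, and KELLY was contrasted with each of 4 lines. A call needed a Benjamini-Hochberg adjusted p under 0.05 and a difference of at least 1, of the same sign, in all 4 contrasts. The call was also run on simulated data with planted changes larger than the size rule. That run does not bear on genes near the threshold. "Unadjusted p" means that of the same model, with no size rule.

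Members and the 28 gene lists were chosen with earlier results of these data known. Genes named are the 14 farthest above and below the nearest line, up to 4 called members of a list or 2 others, MYCN and a few other fixed genes and the 2 on each side of the threshold; others are examples chosen after their values were seen. Deviations of arrays of equal number in different lines correlated at -0.23 to 0.23 over 30 pairs, of which 5 were over 0.1. No strong pairing was seen, but this cannot show that equal numbers were handled apart. The main model did not pair them. Alternatives changed the scaling, pseudocount, filter, probe set choice and samples. The number of arrays limits the precision. Promoters and chromosomes are from RefSeq (GRCh38.p14).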

Additional observations from a re-analysis of the deposited data

How the results depend on the processing

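Against 135 higher and 116 lower genes, the deposited scale gave 60 and 221 (55 and 102 of them shared), equal ERCC medians 64 and 227 (60 and 106 shared), and centring on all probe sets 97 and 179. A floor under low values gave 86 higher genes, a filter at the 75th percentile 77, and averaging all probe sets of a gene 72 lower genes. Alternatives added after the data were seen left out 1 contrast each: without SH-SY5Y 212 genes were higher, without NGP 275 were higher and 230 lower, and without SK-N-AS 178 were lower. The remaining counts stayed within 1.5 times. Leaving out each array in turn gave 130 to 139 higher and 112 to 121 lower genes. A model with a block for the array number gave 135 and 116. Of 57 named called genes, 26 kept the call under every alternative, and 1257 of 1361 alternative values kept it. The difference from the nearest line changed sign for ANGPTL4 (-0.11 on the deposited scale and -0.13 with equal ERCC medians). With the floor, at which values have no order, it became 0.34 for FZD1, 0.27 for LGR5, 0.29 for SEMA3C, 0.29 for SCN9A, -0.047 for DOCK3 and -0.0824 for P2RX3. The cause was not tested. Signal over background limits the folds of genes below the filter.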
